A study of Arabidopsis thaliana with 128 samples.

Results

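The 10 genes described here are co-chaperones and regulators of the heat response and of acquired thermotolerance in *Arabidopsis thaliana*. They are *HSA32* (AT4G21320), *ROF1* (AT3G25230), *ROF2* (AT5G48570), *FES1A* (AT3G09350), *HOP3* (AT4G12400), *BAG6* (AT2G46240), *MBF1C* (AT3G24500), *DREB2A* (AT5G05410), *DREB2C* (AT2G40340) and *HSBP* (AT4G15802). They were chosen by function and matched by gene identifier, not by their values, and all 10 were found among the 29417 nuclear genes of a table with 60886 features, the rest being mainly transposable elements. The study asked how heat stress changes transcription in shoot stem cells and in somatic tissue, and whether changes last after recovery or depend on DNA methylation. Plants were heat-exposed at 37 °C for 1 day at an age of 6 days and were sampled at day 7 or, after 21 days of regrowth, at day 28, each with unstressed controls.

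All plants, controls included, were Col-0 transgenic for *pCLV3::H2BmCherry*, a nuclear reporter driven by the promoter of the stem cell gene *CLV3*. The wt carries this reporter alone, *poliv* also carries the insertion allele *nrpd1a-3* in the gene for the largest subunit of RNA polymerase IV, and *ddm1* carries the insertion allele *ddm1-10* in a chromatin remodeler gene. In group names C stands for control and H for heat, T7 for pools of dissected seedlings without roots, S7 for sorted stem cell nuclei, N7 for sorted non-stem nuclei (wt only), I28 for pooled inflorescence apices and S28 for stem cell nuclei at day 28. There were 128 libraries in 26 groups. Each S7 group had 8 libraries, each N7 group 6, and the other groups 4, apart from *poliv* CT7, wt CI28, *ddm1* HI28 and *ddm1* HS28 with 3 each. The labels number the libraries of a group but do not say whether they came from separate cultures, so each p-value rests on the variation among the libraries sequenced, which may be technical.

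Sequencing depth, as recovered from the table, was 8614232 to 17611137 reads in T7 and 7456669 to 15016702 in I28, but 1853992 to 5813317 in S7, 3401349 to 5253212 in N7 and 2615204 to 6999950 in S28. Each read was worth 0.677 to 1.82 normalized counts in T7, 0.676 to 1.70 in I28, 0.428 to 2.37 in S7, 0.565 to 1.36 in N7 and 0.567 to 1.49 in S28. The insertions did not remove the transcripts of their genes in every sample type. *NRPD1* ranged from 2.18 to 201.1 normalized counts in *poliv* libraries and from 1.03 to 158.2 in wt. *DDM1* had a median of 2.8 in *ddm1* T7 against 20.9 in wt T7, and of 3.3 in *ddm1* I28 against 51.9 in wt I28. In nuclei the medians were 128.3 in *ddm1* S7 against 78.1 in wt S7, and 87.1 in *ddm1* S28 against 32.3 in wt S28. Reads on either side of an insertion can be counted, so these values do not check the genotype labels. The sum of *CLV3*, *WUS*, *AGO5* and *AGO9*, here called the stem cell markers, separated wt CS7 (136.9 to 386.6) from wt CN7 (2.571 to 11.64). *WUS* is not among the genes that the study used to mark stem cells. In *ddm1* CS7 the sum was only 4.5 to 78.87. The mesophyll markers were higher in *ddm1* CS7 (94490.9 to 134409.0) than in wt CS7 (39436.7 to 55366.5), and this touches every comparison that uses the *ddm1* nuclei of day 7.

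When proteins unfold in hot cells, heat shock transcription factors (HSFs) bind short repeats of GAA and TTC, called heat shock elements, and switch on chaperones such as HSP70, HSP90 and HSP101. Co-chaperones hold or hand over client proteins for these machines: ROF1 and ROF2 are FKBP-type peptidyl-prolyl isomerases that bind HSP90, HOP3 bridges HSP70 and HSP90, FES1A is a nucleotide exchange factor for HSP70, and BAG6 belongs to a family that binds HSP70 and, in this member, calmodulin. HSA32 prolongs acquired thermotolerance during recovery together with HSP101. MBF1C is a transcriptional coactivator needed for basal thermotolerance, DREB2A and DREB2C are AP2-type transcription factors of the drought and heat response that act upstream of *HSFA3*, and HSBP binds HSFs and dampens their activity.

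Promoters were read because 9 of these genes moved together under heat. In the 250 bases before the annotated gene start (RefSeq, TAIR10.1), 4 of the 10 genes carried a pair of inverted heat shock repeats, GAANNTTC or TTCNNGAA on either strand, which 16.0% of all 26707 promoters of this length carry. *DREB2A* alone of the 10 had a triplet, in which both pairs overlap on a shared repeat, a form in 0.393% of promoters. The drought-responsive element ACCGAC or GCCGAC, on either strand, stood in 7.12% of promoters and in 0 of the 10. The sites are shown as 30 bases of the plus strand, which is the coding strand of all 4 genes, with the repeats in capitals; a match is a match of letters and no evidence of binding.
HSA32, chr4:11340332-11340361: agagtaacaaaTTCGAGAAcatgacgtggc
FES1A, chr3:2870896-2870925: aaaaaggtaaaTTCAAGAAaggcttatcga
BAG6, chr2:18986088-18986117: agaaacgaagaGAAAATTCcagatttttca
DREB2A, chr5:1602032-1602061: acagcgtgtTTCGAGAAGATTCgggaggac
The repeats lay 19 to 12 bases before the start in *HSA32*, 63 to 56 in *FES1A*, 34 to 27 in *BAG6* and 164 to 152 in *DREB2A*. The 250-base window of *FES1A* lies inside another annotated gene, AT3G02195, and that of *MBF1C* inside AT3G24495. Other annotated genes also cover 74 bases of the *HOP3* window and 77 of the *BAG6* window.

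Heat raised 9 of the 10 genes in wt seedlings at day 7, and only *HSBP*, the binder of HSFs, did not pass the test. The summed transcripts of the 10 genes were 0.00583% ± 0.000618 (SD, n = 4) of nuclear gene counts in wt CT7 and 0.722% ± 0.191 in wt HT7. A gene was called when limma, fitted on log2(normalized count + 1), gave an adjusted p below 0.05 over all features and a change of more than 1 on the log2 scale; 20.3% of 17409 tested features were called higher and 27.4% lower in this comparison. The median log2 change was 6.27 over the 10 genes and -0.14 over all features. With TMM scaling the median of all features became 0.33 and the split of calls turned from 3539 higher and 4766 lower to 5281 higher and 3505 lower, while the same 9 genes stayed called.

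*ROF2* (chr5:19690461-19693845, minus strand) showed the widest change. Its normalized counts were 3.604, 5.516, 7.274 and 21.11 in wt CT7 and 30490.8, 36456.2, 37108.6 and 55606.0 in wt HT7. No heat library came near the controls, and the mean rose 4256.7-fold (log2 12.14 ± 0.42 SE, limma adjusted p = 5.81e-09), or 7304-fold without wt CT7 replicate 4. Per kilobase of exons *ROF2* went from the sixth place among the 10 genes in wt CT7 (4.241) to the first in wt HT7 (18053.1), and by normalized count it ranked 33 among all 29417 nuclear genes. Its paralogue *ROF1* (chr3:9188096-9191630, plus strand) had a basal level already, at 185.6, 160.0, 123.7 and 260.4 in wt CT7, and reached 7450.4, 7682.3, 8694.4 and 11743.8 in wt HT7. The groups did not overlap and the fold was 48.75 (log2 5.63 ± 0.25 SE, adjusted p = 6.03e-09). In each of the 3 genotypes the log2 change of *ROF2* exceeded that of *ROF1* (10.70 against 5.33 in *poliv*, 10.63 against 5.15 in *ddm1*); this difference between genes was not tested.

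The other co-chaperones rose from different starting points. *HOP3* (chr4:7338018-7341363, minus strand) was near the floor in wt CT7, at 7.209, 5.516, 3.637 and 5.279, and stood at 3838.6, 4313.0, 4488.1 and 5317.1 in wt HT7. The heat libraries were close to each other and far from the controls, an 829.8-fold rise (log2 9.47 ± 0.22 SE, adjusted p = 5.21e-11). *HOP3* shares 163 exonic bases with AT4G12390 on the opposite strand, and the strand setting of the counting is not given in the sources used here; AT4G12390 reached at most 652.3 in any library. *FES1A* (chr3:2870970-2873332, plus strand) moved from 34.24, 53.78, 56.37 and 22.87 to 719.3, 680.2, 494.9 and 2109.8, where replicate 4 stood well above the others. Its fold was 23.94 (log2 4.39 ± 0.44 SE, adjusted p = 1.21e-05), and 15.1 without that replicate.

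*BAG6* (chr2:18986133-18990220, plus strand) was listed at 0 in 3 of 4 wt CT7 libraries and at 14.08 in replicate 4, and at 205.3, 187.3, 130.0 and 638.5 in wt HT7. Replicate 4 was the highest library in both groups, and the groups did not overlap (log2 6.92 ± 0.93 SE, adjusted p = 0.000196). The ratio of the means, 82.5, rests on replicate 4, the only control above 0, and was 49.5 without replicate 4 of the heat group. Its BAG-domain relatives did not follow it: *BAG1*, *BAG2*, *BAG3* and *BAG7* were called lower in wt T7, by -1.90, -1.55, -2.31 and -1.70, and *BAG4* (-0.49) and *BAG5* (-0.02) did not pass. Of the HSP70-HSP90 bridging proteins *HOP1* (1.61) and *HOP2* (2.73) also rose.

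The memory gene *HSA32* (chr4:11340362-11342075, plus strand) had 23.43, 30.34, 40.01 and 15.84 normalized counts in wt CT7 and 3957.8, 4649.5, 5750.9 and 4839.0 in wt HT7. The heat libraries lay close together and far above the controls (175.2-fold, log2 7.46 ± 0.27 SE, adjusted p = 1.23e-09). The same rise was found in *poliv* (log2 7.61, HT7 values 3628.7 to 8355.3) and in *ddm1* (log2 8.36, HT7 values 4977.1 to 7710.2). In *poliv* HT7 replicates 3 and 4 were well above replicates 1 and 2. *HSA32* shares 113 exonic bases with AT4G21323 on the same strand, which reached at most 67.87 in any library.

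Among the regulators, the coactivator gene *MBF1C* (chr3:8918267-8919683, plus strand) rose from 43.25, 60.67, 45.46 and 49.27 in wt CT7 to 1231.3, 1043.5, 842.1 and 6131.6 in wt HT7. Replicate 4 was again far above the rest, and leaving it out kept the call. The fold was 46.56 (log2 5.0 ± 0.56 SE, adjusted p = 6.17e-05), and 20.9 without replicate 4. *MBF1C* shares exonic bases with AT3G24503 (114) and AT3G24495 (22) on the opposite strand. Its paralogues *MBF1A* (2.90) and *MBF1B* (2.77) rose less on the log2 scale.

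*DREB2C* (chr2:16848160-16850494, minus strand) was at 0 in all 4 wt CT7 libraries and at 139.9, 132.8, 307.7 and 392.0 in wt HT7. Against the limit that 3 reads over the group allow, this was an at least 191.9-fold higher level. *DREB2A* (chr5:1602205-1604112, plus strand) stayed low even in heat, at 0, 4.137, 1.818 and 0 in wt CT7 and 20.67, 18.52, 63.31 and 69.06 in wt HT7 (28.8-fold, log2 4.25 ± 0.67 SE, adjusted p = 0.000169). The controls held 4 reads in all, and without replicate 2 of wt CT7 the ratio was 70.8. For both genes replicates 3 and 4 lay above replicates 1 and 2 in the heat group of every genotype. Per kilobase of exons *DREB2A* was the lowest of the 10 genes in wt HT7 (25.98), below *BAG6* (76.71) and *DREB2C* (104.1). *DREB2A* shares 73 exonic bases with AT5G05420 on the opposite strand (at most 74.84 in any library). Their relative *DREB2B* rose by 6.20.

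*HSBP* (chr4:8986598-8988661, minus strand) was the one gene without a call. It had 993.0, 755.6, 651.0 and 768.9 normalized counts in wt CT7 and 1139.6, 1330.6, 720.9 and 922.2 in wt HT7. The groups overlapped and the change was 0.36 ± 0.23 SE on the log2 scale (adjusted p = 0.208). Per kilobase it was the highest of the 10 genes in wt CT7 (933.0, ahead of *ROF1* with 78.97) and the sixth in wt HT7 (1211.2).

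**Figure D1:**
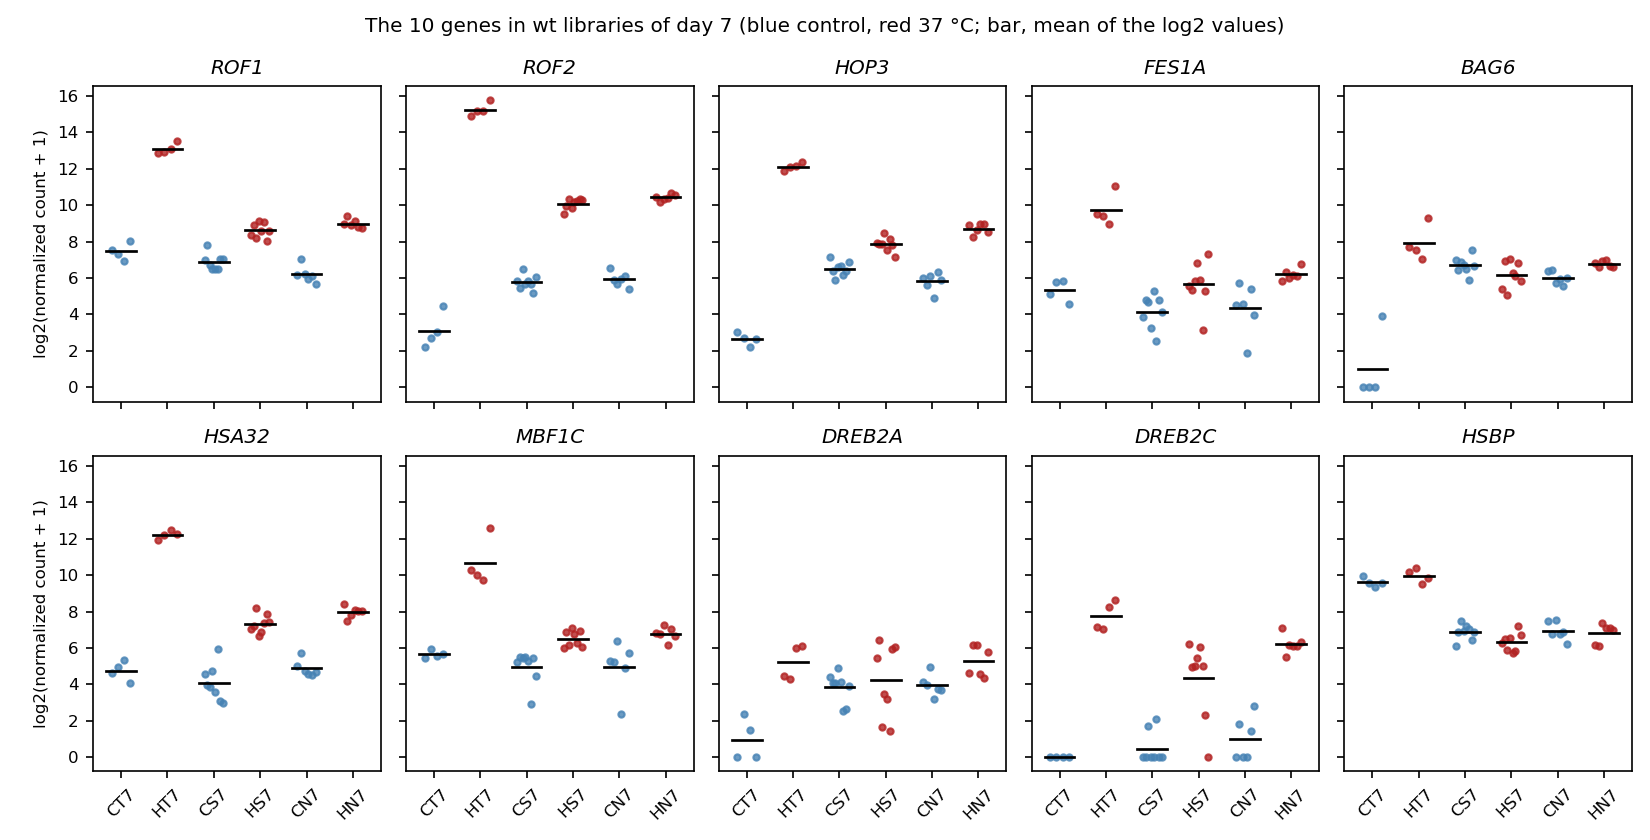
Normalized counts of the 10 genes in each wt library of day 7 (points; axis log2 of count + 1; blue control, red heat; bars, means of the log2 values) for whole seedlings (T7), stem cell nuclei (S7) and non-stem nuclei (N7). In seedlings 9 genes, all but *HSBP*, separate without overlap, and their distance between control and heat is smaller in both kinds of nuclei. Over all features 20.3% were called higher and 27.4% lower in wt T7, and the share that separates without overlap was not counted.

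In *poliv* and *ddm1* seedlings the same 9 genes were called higher, against 22% of features in *poliv* and 22.7% in *ddm1*, and *HSBP* was not called (log2 -0.43 and -0.24). *DREB2C* was again at 0 in *poliv* CT7 and at 330.6, 255.3, 645.2 and 639.4 in *poliv* HT7, at least 349.7-fold higher. In *ddm1* CT7 it was at 0 in 3 libraries and at 1.346 in replicate 4, and in *ddm1* HT7 at 157.9, 142.6, 648.8 and 679.0. In *poliv* T7 the TMM split was 4980 higher and 3719 lower, against 3823 and 4704.

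The heat response differed between genotypes in seedlings for *HOP3*. In *ddm1* the control libraries had 16.56, 12.92, 19.4 and 41.74 and the heat libraries 2794.9, 2565.7, 3901.9 and 5821.3. All 4 *ddm1* controls stood above all 4 wt controls, and the heat groups of wt and *ddm1* overlapped. The log2 change was 2.09 lower in *ddm1* than in wt (-2.09 ± 0.44 SE, limma adjusted p = 0.0085; called lower were 1.26% of features), and *HOP3* was higher in *ddm1* CT7 than in wt CT7 (1.77 ± 0.45 SE, adjusted p = 0.0279; 6.32% of features called higher). The interaction missed the threshold with edgeR on recovered reads (-2.38, adjusted p = 0.0571), and the CT7 difference missed it when any of 5 of the 8 libraries was left out (adjusted p up to 0.124). *poliv* CT7 had 20.23, 20.72 and 11.34, which also lay above wt, but passed neither test (1.51, adjusted p = 0.681; interaction -1.33, adjusted p = 0.26). For *ROF2* the *ddm1* interaction of -1.51 (adjusted p = 0.211) and the CT7 difference of 1.23 (adjusted p = 0.299) passed when wt CT7 replicate 4 was left out (-1.96, adjusted p = 0.01, and 1.69, adjusted p = 0.0452).

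The heat libraries of seedlings also differed from the controls in their cell type markers. The 4 mesophyll markers, 1699112.5 to 2822358.1 in wt CT7, summed to 271443.9 to 520978.3 in wt HT7, and the 4 epidermis markers went from 16572.7 to 27144.8 down to 540.5 to 2510.6; all 8 were called lower in each genotype. Organelle genes took 5.08% to 9.64% of reads in wt CT7 and 14.7% to 21.0% in wt HT7. In bulk samples fewer cells of a type and less RNA per cell cannot be told apart. The part of these shifts in the rises above was not tested.

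In stem cell nuclei of wt, 7 of the 10 genes were called higher in heat, against 12.5% of features called higher and 23.7% lower. With TMM scaling the split over all features moved from 2410 higher and 4558 lower to 3024 and 3683. The called genes were the co-chaperones *ROF1*, *ROF2*, *FES1A* and *HOP3*, the memory gene *HSA32*, and *MBF1C* and *DREB2C*. The 10 genes took 0.0216% ± 0.00303 (SD, n = 8) of nuclear gene counts in wt CS7 and 0.110% ± 0.0104 in wt HS7.

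*ROF2* again led. It had a lowest, median and highest value of 34.74, 53.42 and 91.05 in wt CS7 and of 729.4, 1163.3 and 1296.0 in wt HS7. The 8 heat libraries all lay above the 8 controls (19.76-fold, log2 4.31 ± 0.19 SE, limma adjusted p = 1.69e-17). *HSA32* went from 6.886, 13.98 and 60.34 to 101.0, 154.5 and 289.9, also with no overlap (8.366-fold, log2 3.25 ± 0.41 SE, adjusted p = 1.93e-07). *ROF1* went from 88.06, 116.4 and 228.5 to 260.2, 384.2 and 563.6 (log2 1.73 ± 0.22 SE, adjusted p = 1.84e-07), the one control at 228.5 being replicate 2.

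*HOP3* moved less in stem cell nuclei, from 57.74, 89.55 and 139.7 to 143.9, 231.5 and 357.2, so that the lowest heat library sat just above the highest control (2.531-fold, log2 1.33 ± 0.23 SE, adjusted p = 3.01e-05). *MBF1C* went from 6.524, 39.67 and 43.94 to 62.01, 92.56 and 137.1 (log2 1.56 ± 0.40 SE, adjusted p = 0.00209). *DREB2C* was at 0 in 6 of 8 controls and in 1 of 8 heat libraries, with a median of 31.09 in heat (log2 3.90 ± 0.81 SE, adjusted p = 0.000287). *FES1A* overlapped, at 4.893, 20.39 and 38.13 against 7.887, 50.76 and 160.6, and its call (1.49, adjusted p = 0.0341) was lost without any of 7 of the 16 libraries (adjusted p up to 0.0794) and without the filter on low values (adjusted p = 0.057).

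The 3 genes without a call in wt S7 were *BAG6*, *DREB2A* and *HSBP*. *BAG6*, nearly silent in unstressed seedlings, had 58.71, 101.9 and 182.1 in wt CS7 and 32.22, 72.25 and 130.6 in wt HS7 (-0.51, adjusted p = 0.208). *DREB2A* spread from 1.753 to 86.96 in wt HS7, around controls of 4.893 to 28.32 (0.38, adjusted p = 0.71). *HSBP* overlapped between wt CS7 (67.58 to 175.4) and wt HS7 (52.37 to 143.9; -0.53, adjusted p = 0.126).

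The heat response was smaller in stem cell nuclei than in seedlings for the same 9 genes, by a test of the difference in log2 change. In this limma fit alone, libraries were weighted by a variance estimated for each sample type. The difference was -8.14 ± 0.32 SE for *HOP3*, -7.83 ± 0.43 for *ROF2* and -7.43 ± 0.89 for *BAG6*, and lay between -4.21 and -2.91 for *HSA32*, *ROF1*, *MBF1C*, *DREB2A*, *DREB2C* and *FES1A* (limma adjusted p from 3.38e-19 for *HOP3* to 0.00489 for *DREB2A*). Over all features 14% were called lower and 9.64% higher in this difference, and the median was -0.26. With TMM scaling the split of 1843 higher and 2679 lower became 1418 and 3409, and with edgeR *DREB2A* (adjusted p = 0.0579) and *DREB2C* (adjusted p = 0.21) lost the call. *HSBP* had -0.89 (adjusted p = 0.0492), under the fold limit, and passed it with TMM scaling (-1.14), with edgeR (-1.17) and without wt HS7 replicate 7, wt CT7 replicate 1 or wt HT7 replicate 3 (-1.01, -1.0 and -1.05). Seedlings and nuclei differ in the RNA they hold, in depth, in cell makeup and, by the study's methods, in the library kit (Smart-seq version 2 for T7, I28 and S28, version 3 for S7, where the labels give version 2 throughout), and these cannot be told apart here. The control levels differed as well: *HOP3* had a mean of 93.81 in wt CS7 against single digits in wt CT7, and *BAG6* a mean of 107.5 against 0 in 3 of 4 seedling libraries.

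The study's methods name the library kit for S7 but not for N7, while its results text describes Smart-seq version 3 for sorted nuclei in general. A kit difference, if any, cannot be told apart from cell type. Non-stem nuclei did allow a comparison between sorted nuclei. There 8 of the 10 genes were called higher (16.0% of features were called higher and 24.4% lower; with TMM scaling 3919 and 3705 instead of 3067 and 4671). *ROF2* went from 41.27, 59.05 and 93.01 in wt CN7 to 1175.8, 1390.4 and 1604.9 in wt HN7, and *ROF1* from 49.77, 69.8 and 133.7 to 427.1, 490.2 and 678.3. Both groups were apart in both genes (log2 4.52 ± 0.17 SE, limma adjusted p = 1.06e-17, and 2.79 ± 0.21 SE, adjusted p = 1.63e-11). *HSA32* (21.62, 24.89 and 52.27 against 175.1, 259.2 and 343.5) rose by 3.10 and *DREB2C* by 5.20. *BAG6* did not overlap either (45.74 to 84.83 against 96.58 to 124.6), but its change of 0.76 (adjusted p = 0.0121) was under the fold limit, which it passed with TMM scaling (1.02). *DREB2A* (8.158 to 29.59 against 19.08 to 71.73) was called at 1.32 (adjusted p = 0.0278), a call lost without wt CN7 replicate 4 or any of wt HN7 replicates 2, 3 and 6 (adjusted p 0.056 to 0.0719).

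*HOP3* was the gene whose heat response differed between the 2 kinds of nuclei. In wt CN7 it had 28.55, 61.29 and 79.0, and in wt HN7 306.1, 441.6 and 503.1, a 7.358-fold rise against 2.531-fold in stem cell nuclei. The difference in log2 change was -1.57 ± 0.33 SE (limma adjusted p = 0.0121; 0.135% of features were called lower in it), and it held when any 1 of the 28 libraries was left out. *ROF1* moved in the same direction without passing (-1.06 ± 0.31 SE, adjusted p = 0.156), and for *HSA32* the interval of the difference was centred near 0 (0.15 ± 0.51 SE). Compared directly, 0 of 10 genes were called between stem and non-stem nuclei in heat and 0 of 9 in control, with limma; 1.02% of features were called higher and 0.368% lower in heat and 2.02% and 0.476% in control, and at an unadjusted p below 0.05 there were 5 of the genes in heat and 3 in control. *HOP3* was lower in wt HS7 than in wt HN7 by 0.86 ± 0.20 SE (-0.86, adjusted p = 0.00881), under the fold limit. The summed stem cell markers rose with heat in S7 from a mean of 294.9 to 832.6 and the mesophyll markers fell from 49166.1 to 5718.3; in N7 the mesophyll markers fell from 78566.0 to 9492.6. The part of these shifts in the difference of *HOP3* was not tested.

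Stem cell nuclei of *poliv* had 6 of the 10 genes called higher (12.5% of features higher, 22.7% lower): *HSA32*, *ROF1*, *ROF2*, *FES1A*, *HOP3* and *DREB2C*, with log2 changes of 2.30, 2.05, 3.21, 1.33, 1.72 and 4.63. *MBF1C* had a median of 49.3 in *poliv* CS7 and 71.53 in *poliv* HS7 (0.37, adjusted p = 0.5). The *FES1A* call (adjusted p = 0.03) was lost without *poliv* CS7 replicate 7 (adjusted p = 0.0626) or *poliv* HS7 replicate 4 (adjusted p = 0.0522), and without the filter on low values (adjusted p = 0.0519). With limma 0 of 10 genes differed in heat response from wt (0.0467% of features called higher and 0.187% lower; 2 genes, *ROF2* and *MBF1C*, had an unadjusted p below 0.05). *ROF2* was near the threshold at -1.10 ± 0.28 SE (adjusted p = 0.0857) and passed with TMM scaling (-1.16, adjusted p = 0.0485) and with edgeR (-1.14, adjusted p = 0.0357), and without *poliv* CS7 replicate 6 (adjusted p = 0.0455) or wt CS7 replicate 3 (adjusted p = 0.0372).

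In *ddm1* stem cell nuclei 7 genes were called higher and 1 lower (12.1% and 23.0% of features), and the set was not that of wt. *HSA32*, *ROF1*, *ROF2*, *HOP3* and *DREB2C* rose in both, whereas *BAG6* and *DREB2A* were called in *ddm1* but not in wt, and *FES1A* (0.69, adjusted p = 0.27) and *MBF1C* (0.11, adjusted p = 0.843) were called in wt but not in *ddm1*. *DREB2C* was at 0 in all 8 *ddm1* CS7 libraries and at 39.22, 74.55 and 124.6 in *ddm1* HS7, at least 100.8-fold higher. *DREB2A* went from 1.813, 12.68 and 32.94 to 25.49, 62.89 and 185.4 (2.26 ± 0.55 SE, adjusted p = 0.00138), and its difference from wt was not past the threshold (1.88, adjusted p = 0.226). *FES1A* was called without *ddm1* HS7 replicate 7, at 5.593 the lowest library (1.11, adjusted p = 0.0217).

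Only *ROF2* and *BAG6* differed in heat response between *ddm1* and wt stem cell nuclei by the test of the difference, among the 10 genes (3.03% of features were called higher in it and 4.06% lower). *ROF2* had 68.34, 133.0 and 238.4 in *ddm1* CS7 and 611.1, 741.6 and 800.0 in *ddm1* HS7. The *ddm1* controls were mostly above the wt controls (34.74 to 91.05) and the *ddm1* heat libraries had a lower median than those of wt (1163.3), with which they overlapped. The log2 change was lower by 1.80 (-1.80 ± 0.28 SE, limma adjusted p = 1.3e-05), with *ROF2* 1.23 ± 0.26 SE higher in *ddm1* CS7 (adjusted p = 0.000405; 13% of features called higher and 4.75% lower) and -0.57 ± 0.12 SE in HS7 (adjusted p = 0.000861), under the fold limit.

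*BAG6* showed the opposite sign. It had 33.19, 75.58 and 106.3 in *ddm1* CS7 and 81.65, 160.1 and 234.5 in *ddm1* HS7 (1.19 ± 0.28 SE, adjusted p = 0.00118), and the medians of wt fell from 101.9 to 72.25. The difference in log2 change was 1.70 ± 0.41 SE (adjusted p = 0.00604), and *BAG6* was higher in *ddm1* HS7 than in wt HS7 by 1.08 ± 0.32 SE (adjusted p = 0.018; 13.3% of features called higher and 3.13% lower), a call lost with edgeR (0.91, adjusted p = 0.0764) and, by a fold just under the limit, without *ddm1* HS7 replicate 3, wt HS7 replicate 1 or wt HS7 replicate 3 (1.00, 0.97 and 0.92). *HSBP* was called lower in *ddm1* (-1.05, adjusted p = 0.0297; 81.29 to 209.4 in CS7, 11.19 to 145.5 in HS7), which did not hold with a pseudocount of 5, without the filter, with TMM scaling, with edgeR (-0.56, adjusted p = 0.285), or without *ddm1* CS7 replicate 4 or *ddm1* HS7 replicates 3, 5 or 7. The stem cell markers of *ddm1* HS7 summed to 118.3 to 324.4 against 628.4 to 1028.3 in wt HS7, beside the gap in CS7 given above, and organelle genes took 10.97% to 13.9% of reads against 16.9% to 21.6%. The part of either in these differences was not tested.

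**Figure D2:**
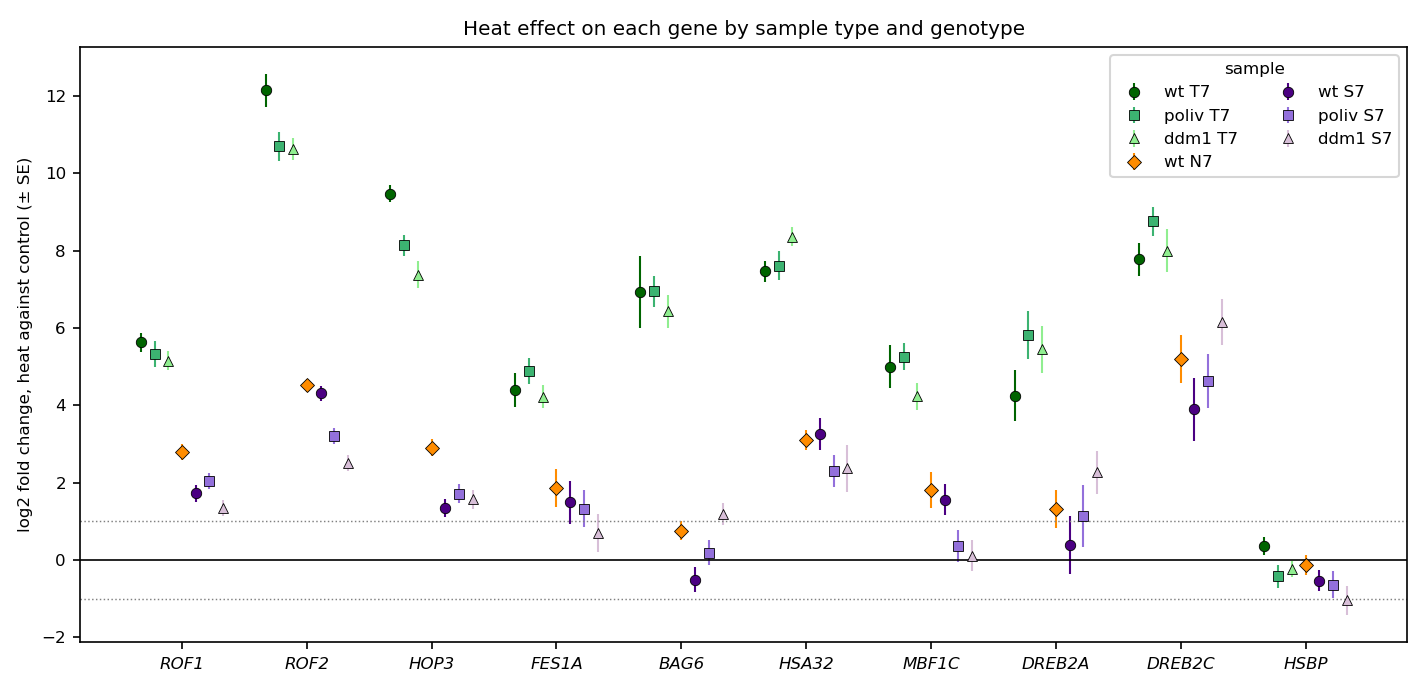
Log2 change in heat with SE (limma; points and bars) of each of the 10 genes in T7, S7 and, for wt, N7, by sample and genotype (colours and shapes); dotted lines mark a log2 change of 1 either way. The changes are largest in seedlings, where *ROF2* (12.14) and *HOP3* (9.47) lead in wt, and *BAG6* in S7 runs from -0.51 in wt to 1.19 in *ddm1*.

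The genes around these 10 moved in part with them. The counts below stand beside 20.3% of all features called higher and 27.4% lower in wt T7, 12.5% and 23.7% in wt S7, and 16% and 24.4% in wt N7. Among 10 chaperones that the co-chaperones serve, 9 were called higher in wt T7, 5 in wt S7 and 6 in wt N7, none lower; *HSP90.1* rose by 10.17 in wt T7 and 4.26 in wt S7, and *HSP70B* by 9.02 and 3.31. Of 11 other heat memory genes 9, 6 and 11 were called higher, and *APX2*, an ascorbate peroxidase gene, rose by 13.26 in wt T7. Of the HSF genes 6 of 12 rose in wt T7, and in wt S7 2 of 11 rose and 2 fell, close to the shares over all features. *HSFA3*, the HSF gene downstream of DREB2A, rose by 7.02 and 3.52. Of 9 tested regulators and targets of DREB2A 4 rose in wt T7 and 4 in wt S7, among them *RD29A* (2.65 and 2.78), and none fell. The paralogues of the 10 genes were split, with 7 higher and 5 lower of 17 in wt T7 and 7 and 7 of 17 in wt S7. The lists were described by these counts only.

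At day 28 the question was whether the earlier heat had left a trace. In wt, with limma, 0 of 8 tested genes were called in inflorescence apices and 0 of 9 in stem cell nuclei, and no feature at all was called (0% higher and 0% lower in both; edgeR on recovered reads also called 0), with 926 and 1412 features at an unadjusted p below 0.05. Among the 10 genes 1 in each was among these, *FES1A* in I28 and *HSBP* in S28. In wt I28 same-numbered libraries deviated together, and with the number as a block 197 features were called, but 0 of the 8 genes. *DREB2A* and *DREB2C* were too low in I28 to be tested, at 0 to 8.822 and 0 to 1.957 normalized counts in all I28 libraries.

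In apices of *poliv*, *ROF1* was called higher after the earlier heat (0.881% of features higher, 0.211% lower). Its normalized counts were 187.7, 225.6, 267.1 and 219.1 in *poliv* CI28 and 360.4, 311.7, 700.6 and 555.6 in *poliv* HI28. Replicates 3 and 4 of the heat group were the highest, and even replicates 1 and 2 lay above all controls (2.143-fold, log2 1.03 ± 0.24 SE, limma adjusted p = 0.0454). The call was lost when any of 5 of the 8 libraries was left out (adjusted p up to 0.161), with TMM scaling and with edgeR. The change in *poliv* was not shown to differ from that in wt (0.57 ± 0.44 SE, adjusted p = 0.873), where *ROF1* had 501.5, 412.4 and 213.7 in CI28 and 381.0, 340.6, 688.9 and 638.7 in HI28. In *poliv* apices 4 of 10 chaperones were called higher, among them *HSP90.2* (2.01) and *HSP90.3* (1.96).

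*MBF1C* and *FES1A* were without overlap but also without a call in the fit without a term for the replicates. How many features of I28 separate without overlap was not counted. *MBF1C* had 11.04, 14.34, 32.83 and 25.22 in *poliv* CI28 and 45.48, 53.31, 632.9 and 337.3 in *poliv* HI28 (12.81-fold, 6.97-fold without replicate 3 of the heat group, log2 2.92 ± 0.98 SE, adjusted p = 0.266), and 11.64, 20.48, 65.93 and 58.68 in *ddm1* CI28 and 78.14, 73.23 and 919.0 in *ddm1* HI28 (9.107-fold, 1.93-fold without replicate 3 of the heat group, log2 2.44 ± 1.18 SE, adjusted p = 0.491). With replicates 1 and 2 against 3 and 4 as a factor, an alternative chosen after seeing the data, both were called (adjusted p = 0.0139 and 0.00167). With the replicate number as a block in limma, *MBF1C* was called in *ddm1* (2.74, adjusted p = 0.0124) and not in *poliv*. Within the heat groups replicate 3 and, in *poliv*, replicate 4 were far above replicates 1 and 2. In wt the same gene had 156.4, 106.2 and 26.71 in CI28, which are replicates 1, 2 and 4, and 92.14, 61.65, 298.8 and 268.2 in HI28.

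*FES1A* had 29.8, 28.68, 38.8 and 37.39 in *poliv* CI28 and 41.98, 45.93, 171.1 and 99.92 in *poliv* HI28 (1.16, adjusted p = 0.245). In *ddm1* it had 56.08, 44.2, 65.93 and 93.0 against 103.5, 103.3 and 265.3 (1.17, adjusted p = 0.211). In wt it had 56.1, 59.41 and 49.61 against 93.02, 82.21, 118.8 and 105.0 (0.84 ± 0.20 SE, adjusted p = 0.727). Thus in all 3 genotypes every library from heat-exposed plants was above every control, yet none of the 3 passed after adjustment over all features without that factor (with it *poliv* had adjusted p = 0.0158 and *ddm1* 0.00597; in *ddm1* I28 0.704% were called higher and 0.0582% lower).

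Across the 10 genes replicates 3 and 4 lay above replicates 1 and 2 without overlap in 14 of 20 gene and group pairs of HI28 (groups with both numbers) and below in 2, and in 18 of 30 of HT7, with 6 below. In the controls this was 7 of 20 in CI28, with 3 below, and 4 of 20 in CT7, with 1 below. In S28 it was 9 of 20 above and 0 below in HS28, and 7 of 30 above and 11 below in CS28. The share of all features with such a separation was not counted, so the counts are not shown to be particular to these genes. Over all features, deviations from the group mean had a mean correlation between groups of 0.174 for libraries of the same pair of numbers and -0.174 for the others in S28, 0.04 and -0.04 in T7, and 0.04 and -0.041 in I28. Deviations from a group mean cancel within the group, so the negative values mirror the positive ones and add no information. The labels name no batch, date or run.

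**Figure D3:**
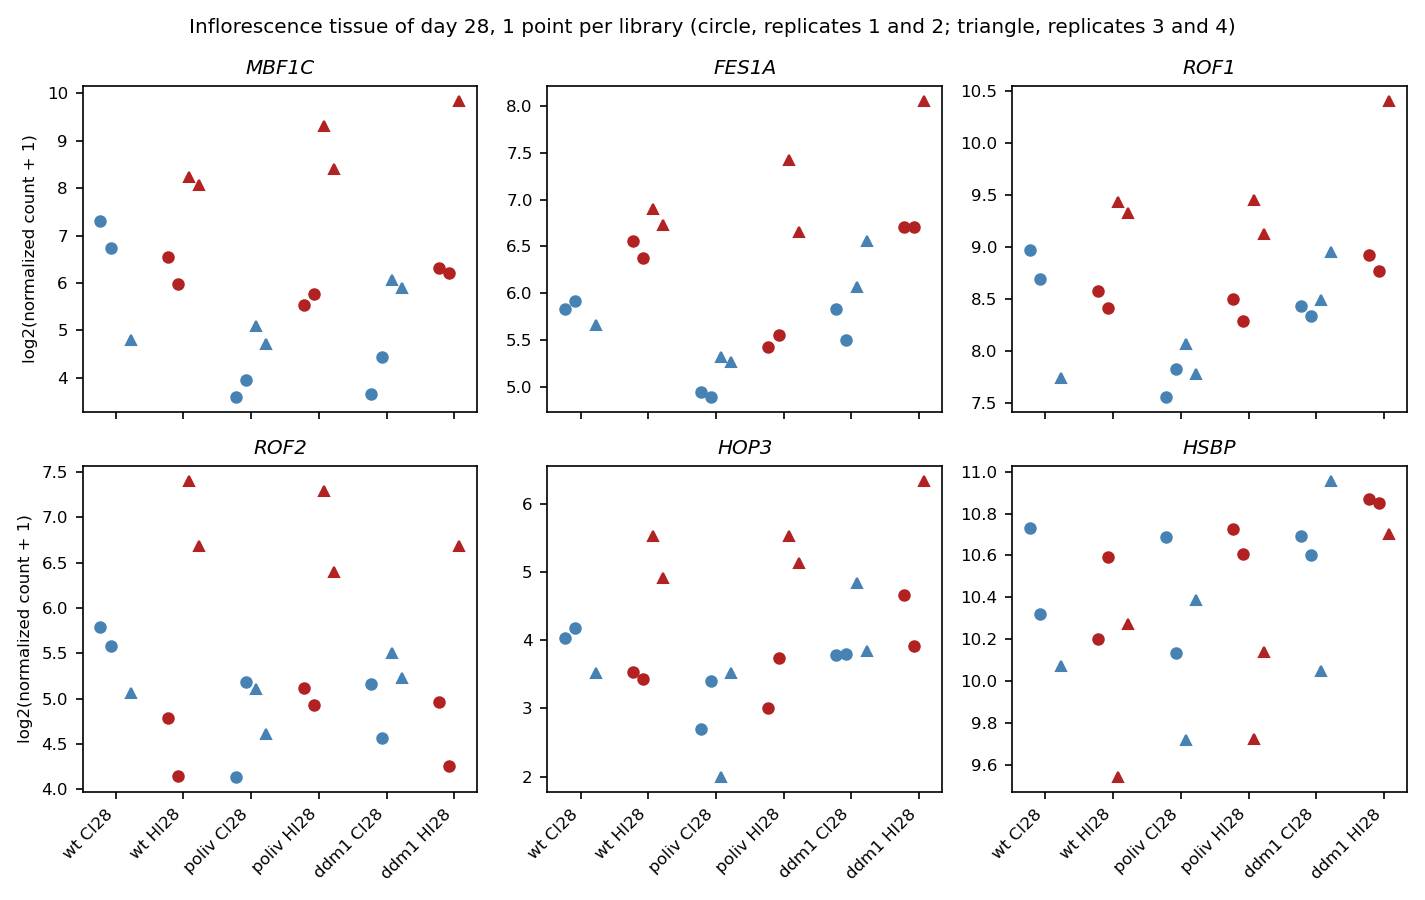
Normalized counts (axis log2 of count + 1) of 6 genes in each inflorescence library of day 28 (blue control, red earlier heat; circles, replicates 1 and 2; triangles, replicates 3 and 4), each panel with its own axis range. *FES1A* lies higher in every heat-exposed library than in every control of the same genotype, and the heat libraries of *MBF1C* in *poliv* reach from 45.48 to 632.9. The share of all features that separate this way was not counted.

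Stem cell nuclei of day 28 set *DREB2A* apart. In unstressed wt CS28 it had 329.3, 344.0, 1003.8 and 977.7 normalized counts, against 4.893 to 28.32 in wt CS7 and at most 8.822 in any I28 library. By the study's methods the kit was version 2 for S28 and 3 for S7, while its results text describes version 3 for sorted nuclei in general. If the kits differed, kit and day cannot be told apart in the first of these contrasts. The second sets sorted nuclei against whole tissue, and preparation and cell type cannot be told apart in it. At day 7 the mean of *DREB2A* was also higher in wt CS7 (15.07) than in wt CT7 (1.489). In *poliv* CS28 it had 85.87, 87.25, 330.4 and 283.1, and in *ddm1* CS28 18.71, 21.76, 18.81 and 26.24. The 4 *ddm1* libraries lay below all 8 of the other genotypes, and in wt and *poliv* replicates 3 and 4 were far above replicates 1 and 2. *DREB2A* was lower in *ddm1* CS28 than in wt CS28 by -4.71 ± 0.41 SE (limma adjusted p = 5.41e-05; 5.05% of features called lower and 9.21% higher), and the call held under every alternative run. In *poliv* CS28 it was -1.82 ± 0.67 SE (limma adjusted p = 0.703, with 0.282% of features called lower). With replicates 1 and 2 against 3 and 4 as a factor *DREB2A* was called (limma adjusted p = 2.41e-08). That factor was chosen after seeing the data, in which *DREB2A* itself shows this split, so the call is not independent of the choice.

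After the earlier heat the *ddm1* libraries were higher, at 357.6, 40.7 and 83.52 in *ddm1* HS28, all above the 4 controls (7.51-fold, 2.91-fold without replicate 1). The change of 2.29 ± 0.59 SE did not pass (adjusted p = 0.143; 0.169% of features called higher and 0.0604% lower, split 42 to 15 and with TMM scaling 19 to 21), but passed without replicate 1 (1.42, adjusted p = 0.0368) or without replicate 2 (2.97, adjusted p = 0.0442). In *poliv* HS28 *DREB2A* had 385.8, 615.1, 427.4 and 239.9, overlapping its controls (1.27, adjusted p = 0.921; 0.0541% of features called higher and 0% lower), and in wt HS28 237.1, 193.2, 722.0 and 785.1 (-0.52, adjusted p = 0.93). Between *ddm1* and wt in HS28 the difference was -1.90 ± 0.91 SE (adjusted p = 0.457; 0.956% of features called lower), and the interaction of earlier heat and *ddm1* was not past the threshold (2.81 ± 0.99 SE, adjusted p = 0.688).

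Other genes were lower in *ddm1* CS28 too. *ROF2* had 52.14, 86.01, 35.43 and 43.32 in wt and 24.95, 38.68, 20.76 and 19.68 in *ddm1* (-1.0 ± 0.31 SE, adjusted p = 0.0283), and *HOP3* 57.35, 137.2, 37.4 and 46.07 against 36.86, 26.59, 22.05 and 34.59 (-1.02 ± 0.36 SE, adjusted p = 0.0477). In *ROF2* only *ddm1* replicate 2 reached into the wt range, and in *HOP3* no *ddm1* library did. Both calls were lost with a pseudocount of 5, with TMM scaling, with edgeR, and when any of 5 libraries for *ROF2* (adjusted p up to 0.0898) or 7 for *HOP3* (adjusted p up to 0.122) was left out. *BAG6* (-0.98, adjusted p = 0.00359) and *ROF1* (-0.87, adjusted p = 0.00495) were under the fold limit, and passed it without *ddm1* replicate 3 or wt replicate 1 or 2 for *BAG6* (-1.10, -1.07 and -1.09) and without *ddm1* replicate 2 for *ROF1* (-1.03). Of 10 regulators and targets of DREB2A 2 were lower in *ddm1* CS28, *RD29A* (-2.94) and *COR15A* (-1.28), and so were the paralogue *DREB2B* (-2.30) and *HSFC1* (-5.05).

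The mesophyll markers summed to 49084.0 to 58246.0 in *ddm1* CS28 and to 24336.2 to 26674.8 in wt CS28, and the stem cell markers to 471.7 to 589.0 and 661.3 to 725.6. In *ddm1* HS28 the mesophyll sum was 21588.7 to 37963.2. Organelle genes took 14.7% to 20.6% of reads in *ddm1* CS28, 30.2% to 44.2% in wt CS28 and 35.2% to 42.0% in *poliv* CS28. The part of these differences in the level of *DREB2A* was not tested.

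**Figure D4:**
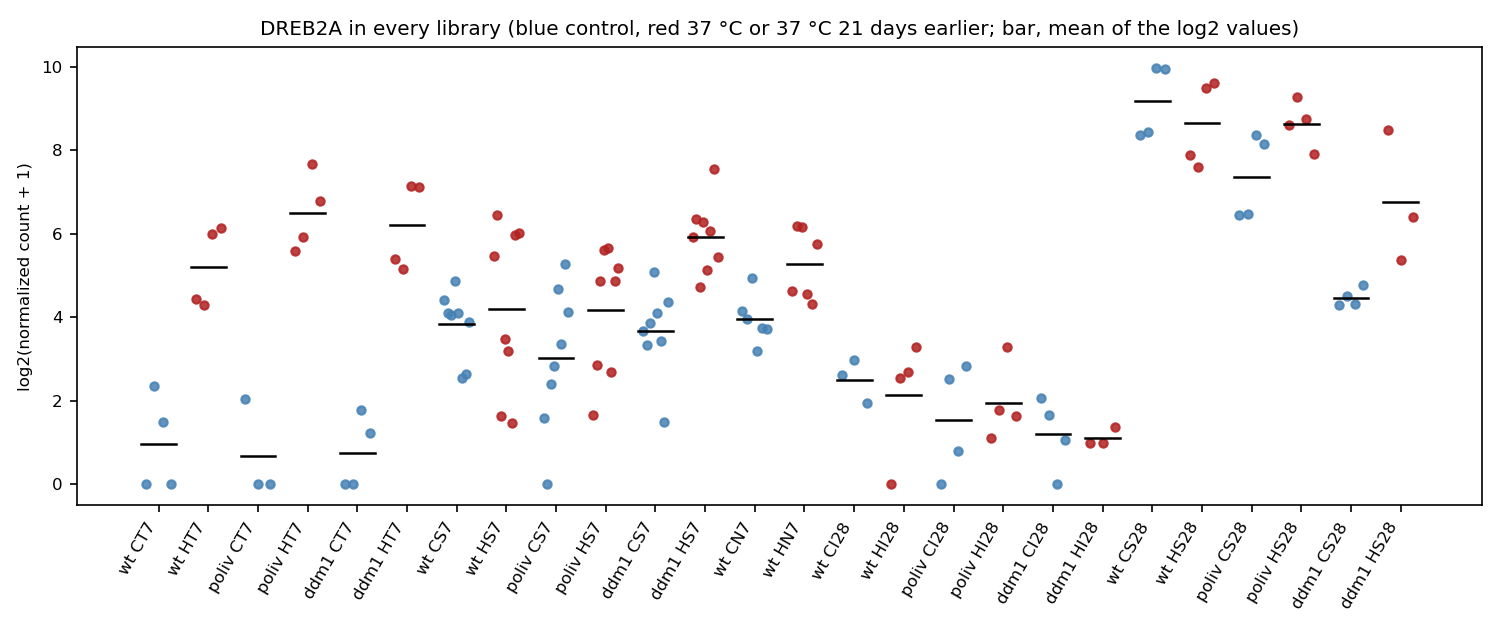
Normalized count of *DREB2A* in every library of the 26 groups (points; axis log2 of count + 1; blue control, red heat or earlier heat; bars, means of the log2 values). Stem cell nuclei of day 28 hold the highest values, up to 1003.8 in wt CS28, while the 4 libraries of *ddm1* CS28 stay between 18.71 and 26.24.

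Genotype differences beyond those given were few. With limma, without a term for the replicates, 0 genes were called between *poliv* and wt in any of the 8 groups compared. With replicates 1 and 2 against 3 and 4 as a factor, *DREB2A* was called in CS28, as given above, and in HT7 (1.28, limma adjusted p = 0.0208). That factor was chosen after seeing the data. The share of features called higher was 0.13% in CT7, 0.187% in HT7, 0.658% in CS7, 0.201% in HS7, 0.113% in CI28, 0.0985% in HI28, 0.122% in CS28 and 0.0258% in HS28. The share called lower was 0.0295%, 0.0422%, 0.324%, 0.0869%, 0.0509%, 0.0109%, 0.282% and 0.00736% in the same order. At an unadjusted p below 0.05 there were 4 genes in HT7 and 4 in CI28, 2 in CT7, 1 each in CS7, HS7 and CS28, and 0 in HI28 and HS28. Leaving out 1 library brought calls in 2 of these groups. Without wt HT7 replicate 4 *BAG6* was higher in *poliv* HT7 (1.69, adjusted p = 0.0363), and without wt CI28 replicate 4 *MBF1C* (-2.69, adjusted p = 0.00718) and *ROF1* (-1.02, adjusted p = 0.0318) were lower in *poliv* CI28. Between *ddm1* and wt 0 genes were called in HT7, CI28, HI28 and HS28 (8.19%, 7.76%, 7.22% and 3.48% of features called higher and 0.352%, 2.52%, 3.39% and 0.956% lower; 0, 1, 1 and 1 genes at an unadjusted p below 0.05). In HI28, where same-numbered libraries of *poliv* and wt deviated together, the block raised the features called from 20 to 32 and left the count of these genes at 0. With edgeR on recovered reads there were also 0 calls in each of these *poliv* and *ddm1* comparisons.

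As a description over the 26 group means, the genes most like each of the 10 were ranked by Pearson correlation of log2 levels among 19461 genes; groups share tissue and treatment, so the points are not independent. *ROF1* and *FES1A* were both closest to *HSP60* (r = 0.987 and 0.975) and next to *Hsp70-15* (0.979 and 0.971), and *ROF2* and *HOP3* to *HSP90.1* (0.985) and *HSP101* (0.974). *HSA32* was closest to AT1G52560 (0.981) and *HSP23.6-MITO* (0.974), and *DREB2C* to *HSP18.2* (0.978), *APX2* (0.977) and *HSP21* (0.974). *MBF1C* was closest to *HSP70* (0.944). *DREB2A* (0.928, AT5G54860) and *BAG6* (0.955, *UBP25* and *MIR824*) had no chaperone among their 3 nearest genes, and neither had *HSBP* (0.989, AT1G01100). Within the 10, *ROF1* and *FES1A* had r = 0.971 and *ROF2* and *HOP3* 0.967, *BAG6* went with *HOP3* (0.837) and *DREB2A* (0.79), and *HSBP* and *BAG6* had -0.573.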

How the data were processed

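RNA was sequenced from tissue pools and from small pools of sorted nuclei. The labels give Smart-seq version 2 for every library, while the study's methods give version 3 for stem cell nuclei of day 7. The study's results text describes version 3 for sorted nuclei in general. The submitters' processing notes name TAIR10, DESeq2 and bedtools 2.27. The aligner and the strand setting are not given in the sources used here. The authors deposited 1 table of DESeq2 size-factor normalized counts per gene and transposable element, here called a signal because the values are no longer whole. Their 52 columns of group means and SDs were not used. In all 128 libraries the values were whole multiples of the value of 1 read (100% within 0.1 of a whole number), which gave the reads per library. In 3 of them (replicate 2 of *ddm1* HI28, replicate 5 of *ddm1* HS7, replicate 1 of wt CN7) that value was 1.0032, 1.0087 and 0.9895, too close to 1 for low values to show that they had been scaled. These stayed in the limma fits and were left out of edgeR, which used the other 125. On the recovered reads edgeR called 4352 features higher and 4067 lower in heat in wt T7.

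Features with a mean of at least 5 over the libraries compared were tested with limma 3.58.1 (trend and robust empirical Bayes, R 4.3.3) on log2(normalized count + 1), each fit holding only the groups compared, with Benjamini-Hochberg adjustment over all features. A fold change on this scale understates changes of low genes. Only the limma test of the heat response in S7 against T7 also used weights (arrayWeights, with a variance for each sample type). The edgeR fit of that comparison used none. Alternatives were pseudocounts of 0.5 and 5, no filter, a minimum mean of 20, TMM scaling, edgeR 4.0.16 (quasi-likelihood) on recovered reads, the replicate number as a block, each library left out in turn, and, added after seeing the data, replicates 1 and 2 against 3 and 4 as a factor. The scripts were tested on simulated data. The genes, the gene lists and these tests were chosen with earlier results of these data known. Names outside the 10 genes are, for each fixed list and comparison, the up to 3 called genes of largest change, with paralogues added after their values were seen. Same-numbered libraries deviated together (every correlation over 0.1) only in earlier heat in wt I28 (0.107 to 0.172) and *poliv* against wt in HI28 (0.181 to 0.322); elsewhere the numbers were not taken to pair libraries. Limits set on a count of 0 (3 reads over the group) cover counting error only. The labels of T7 also carry a cell type tag of inflorescence meristems, which was not followed, since the sample titles say seedlings. Gene positions are RefSeq, TAIR10.1; overlapping genes cannot be told apart without the strand setting.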

Additional observations from a re-analysis of the deposited data

Results flagged for a closer look

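In 14 of 218 gene and group pairs 1 library stood far from the others of its group, by a test that marks about 1 in 20 groups by chance. High libraries were *ROF1* in wt CS7 replicate 2 (228.5, the others 88.06 to 131.6), *HOP3* in *ddm1* CI28 replicate 3 (27.57, the others 12.7 to 13.29), *BAG6* in wt CT7 replicate 4 (14.08, the others at 0) and *HSBP* in *ddm1* CS7 replicate 4 (209.4, the others 81.29 to 126.1). Low libraries were *ROF1* in wt CS28 replicate 4 (115.5, the others 163.4 to 165.1), *ROF2* in *ddm1* HS7 replicate 8 (611.1, the others 704.7 to 800.0) and, for *MBF1C*, wt CS7 replicate 6 (6.524, the others 20.66 to 43.94) and wt CN7 replicate 4 (4.079, the others 28.27 to 82.64). *FES1A* had 3 low libraries, *poliv* CS7 replicate 7 (2.79, the others 26.26 to 52.41), *ddm1* HS7 replicate 7 (5.593, the others 51.45 to 96.86) and wt HS28 replicate 2 (6.465, the others 19.35 to 23.38). *DREB2C* was above 0 in a single library of *ddm1* CT7 (replicate 4, 1.346, 1 read), *poliv* CI28 (replicate 4, 0.8696, 1 read) and *poliv* HI28 (replicate 3, 1.352, 2 reads). The test always marks a library that alone is above 0, whatever its value, as here and in *BAG6* in wt CT7.

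The heat response differed between groups by a test of the difference itself (limma, with the adjusted p-values given in the report). Between wt stem cell nuclei and wt seedlings the difference in log2 change was -4.214 for *HSA32*, -3.899 for *ROF1*, -7.834 for *ROF2*, -2.905 for *FES1A*, -8.138 for *HOP3*, -7.431 for *BAG6*, -3.438 for *MBF1C*, -3.87 for *DREB2A* and -3.876 for *DREB2C*. Between *ddm1* and wt it was -1.802 for *ROF2* and 1.697 for *BAG6* in S7 and -2.094 for *HOP3* in T7. Between stem and non-stem nuclei it was -1.57 for *HOP3*. The values of the markers and of the control groups that moved with these differences stand beside them in the report, and their part was not tested.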

How the results depend on the processing

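Of the comparisons of single genes under the alternatives, 7642 kept their direction and side of the threshold, 32 came to pass it and 60 no longer did, and 0 called values changed sign. Counts of the 10 genes called that moved by over 1.5 times were these. For earlier heat in *poliv* I28 the count of 1 became 0 with TMM scaling (*ROF1*, adjusted p = 0.0524) and 0 with edgeR (adjusted p = 0.0597). For *ddm1* against wt the count in CT7 went from 1 to 0 with a minimum mean of 20, where *HOP3* was not tested, in HS7 from 1 to 0 with edgeR, and in CS28 from 3 to 1 with a pseudocount of 5, 1 with TMM scaling and 1 with edgeR, *DREB2A* being the call kept. The count of differing heat responses went from 0 to 1 with TMM scaling and 1 with edgeR for *poliv* in S7 (*ROF2*) and from 1 to 0 with edgeR for *ddm1* in T7 (*HOP3*). Smaller moves were 7 to 6 in wt S7 (no filter, minimum mean 20), 6 to 5 in *poliv* S7 (no filter), 8 to 7 in *ddm1* S7 (pseudocount 5, no filter, TMM, edgeR), 8 to 9 in wt N7 (TMM) and 9 to 10 (TMM) or 8 (edgeR) for stem cell nuclei against seedlings. The cause was not tested.

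With the replicate block, in groups where not every same-numbered pair correlated over 0.1, the count became 2 for earlier heat in *poliv* I28 (*FES1A* added, adjusted p = 0.0494), 2 in *ddm1* I28 (*FES1A*, 1.36, adjusted p = 0.0312, and *MBF1C*, 2.74, adjusted p = 0.0124) and 1 for *poliv* against wt in CS28 (*DREB2A*, -1.82, adjusted p = 7.56e-08); the block changed no other call of the 10 genes. With replicates 1 and 2 against 3 and 4 as a factor, an alternative chosen after seeing the data, the counts were 3 (*FES1A*, adjusted p = 0.0158, and *MBF1C*, adjusted p = 0.0139, added), 2 (*FES1A*, adjusted p = 0.00597, and *MBF1C*, adjusted p = 0.00167) and 1 (*DREB2A*, adjusted p = 2.41e-08), and 1 in *poliv* against wt in HT7 (*DREB2A*, 1.28, adjusted p = 0.0208). Over all features the block moved the calls from 197 to 351 in *poliv* I28 and from 144 to 386 in *ddm1* I28.

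Leaving out 1 library at a time gave 0 to 1 called genes for earlier heat in *poliv* I28 and in *ddm1* S28, 0 to 1 for *poliv* against wt in HT7 and 0 to 2 in CI28, 0 to 2 for *ddm1* against wt in CT7, 0 to 1 in HS7 and 1 to 3 in CS28, 0 to 1 for the *poliv* interaction in S7 and 1 to 2 for the *ddm1* interaction in T7. It gave 9 in each genotype for heat in seedlings, 6 to 7 in wt S7, 5 to 6 in *poliv* S7, 7 to 8 in *ddm1* S7 and 7 to 8 in wt N7. Low read numbers limit some groups, such as those of *DREB2C*, with at most 10 reads in a control group of day 7 and 4 in an I28 group. A missing call is not evidence that levels were equal. Without the filter on low values, features called for earlier heat went from 0 to 23 in wt I28, 0 to 2 in wt S28, 197 to 464 in *poliv* I28, 144 to 329 in *ddm1* I28 and 57 to 220 in *ddm1* S28. A minimum mean of 20 moved the features called between *ddm1* and wt from 1198 to 704 in CT7, 1531 to 865 in HT7, 1935 to 1225 in CI28 and 2034 to 1260 in HI28, and between *poliv* and wt in CS7 from 188 to 117. Over all features edgeR called 64 instead of 144 for earlier heat in *ddm1* I28, 2 instead of 57 in *ddm1* S28, 58 instead of 496 for the *ddm1* interaction in T7 and 2831 instead of 4522 for stem cell nuclei against seedlings.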
